A study of Homo sapiens with 6 samples.

Results

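Genes that build the ribosome in the nucleolus, together with genes of RNA polymerases I and III (Pol I and Pol III), were examined in HepG2 cells after siRNA against UHMK1. They were chosen by name and function, with earlier results of these data known. The list holds 54 genes: 37 nucleolar processing factors and 17 subunits and factors of the polymerases. Each was read by the array probe set annotated with that gene's symbol alone, and, for a gene with several, by the probe set of highest mean over all 6 arrays. In this way 47 of the 54 were measured, among 33616 named genes. The probe sets of NOP53, NOP56, DKC1, WDR43 and TAF1D carry symbols of small nucleolar RNAs (snoRNAs) as well, and that of BOP1 carries a microRNA, so these genes were not analysed here. GNL3 was not analysed either, since the gene table does not list it.

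HepG2 cells come from a human liver tumour and still make many hepatocyte proteins. All cells were grown in RPMI medium with fetal calf serum and were transfected with siRNA by means of Lipofectamine RNAiMAX. The control cells received a nonsense or scrambled siRNA and the others a UHMK1-specific siRNA, both at 30 nM, and RNA was taken after 24 h. Each group has 3 arrays, numbered 1 to 3 in the titles and called control arrays and knockdown arrays below. Whether these came from separate cultures is not stated, so a p-value measures the spread between arrays, which may be technical. Other effects of the siRNA cannot be told apart from those of losing UHMK1, a protein kinase known to phosphorylate the splicing factor SF1. Its own log2 level was 11.47 ± 0.25 after scrambled and 8.03 ± 0.29 after UHMK1 siRNA (SD, n = 3), which left 9.26% of the signal. The 7 measured hepatocyte markers, among them ALB and AFP, had mean log2 levels between 14.36 and 19.10. Endothelial markers lay between 3.56 and 6.19, and fibroblast and stellate cell markers between 3.90 and 6.44. The leukocyte markers PTPRC, CD3E and MS4A1 had a log2 level of 4.97, 5.97 and 3.83 after scrambled siRNA, whereas LYZ stood at 18.62 and CD68 at 11.77. None of the markers passed the test.

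Ribosomal RNA is made by Pol I as 1 long precursor in the nucleolus, and Pol III makes the smallest ribosomal RNA, the transfer RNAs and other short RNAs. A large assembly, the small subunit processome, forms on the precursor as it is transcribed, and snoRNA-protein particles (snoRNPs) guide the modification of its bases and sugars. Separate sets of factors then mature the small and the large subunit and release them from the nucleolus. The output of this pathway follows growth, and its genes are known as targets of MYC, a transcription factor that binds DNA at E-boxes.

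A change below is the log2 level after UHMK1 siRNA minus that after scrambled siRNA, given with the moderated standard error (SE) of limma. A gene rose or fell where limma's p, adjusted by the Benjamini-Hochberg method over all 33616 genes, was under 0.05. Array values are given in the order of arrays 1, 2 and 3.

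Genes of ribosome biogenesis and of the Pol I and Pol III subunits and factors mostly read lower after UHMK1 siRNA, but 29 of the 47 did not pass. Of the 47 measured, 18 fell and 0 rose in limma, which is 38.3%, while 2.67% of all genes fell and 0.726% rose. The falls were between 1.62-fold and 2.33-fold. In bulk RNA such as this, fewer cells making a transcript and less transcript per cell cannot be told apart. In all, 46 of the 47 changes were negative, against 54.2% of all genes, and the median change was -0.70, which leaves 61.7% of the signal, against -0.02 over all genes. At an unadjusted p under 0.05, 32 members were lower and 1, RRP12, was higher, against 10.1% and 5.21% of all genes. All knockdown arrays lay below all control arrays for 38 members, against 13.3% of all genes, and above them for RRP12 alone, against 7.74%. Brighter genes fell more often, and most members are bright: among genes with a mean log2 level above 8, 8.39% fell, 62.5% had a negative change and 30.0% had groups that did not overlap in this direction, with a median change of -0.11. Among the protein-coding genes above that level, 9.56% fell and the median change was -0.15. Of the 43 members above that level, 16 fell, 43 had a negative change and 35 had such groups, and their median was -0.70. At least 2-fold lower were 6 members, against 1.53% of all genes and 4.67% of those above level 8. UTP14A is 1 of these 6 and did not pass (limma's adjusted p = 0.277).

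**Figure D1:**
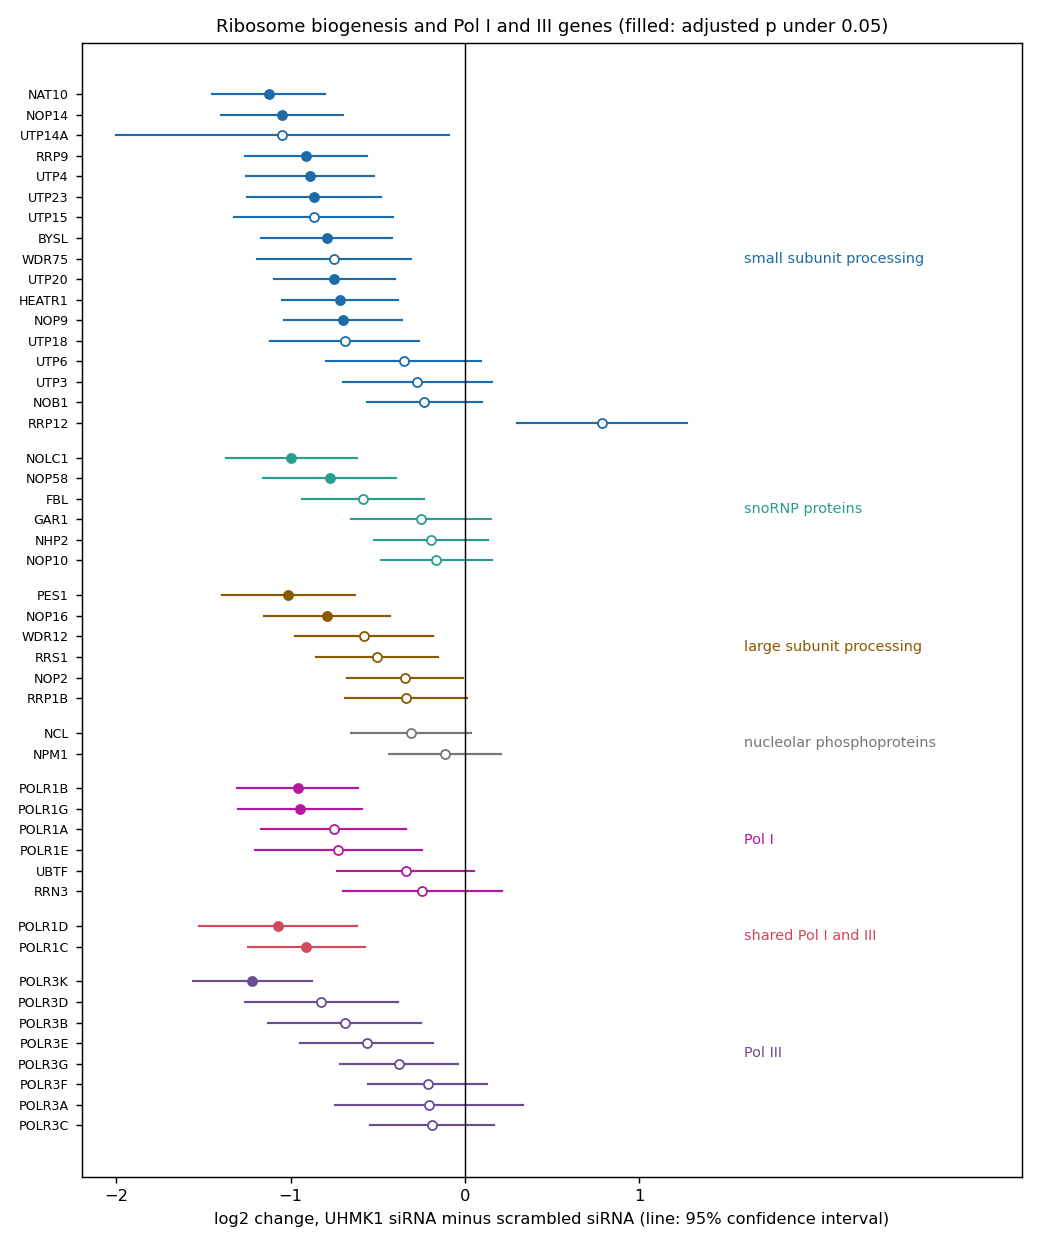
Each point is the log2 change (UHMK1 siRNA minus scrambled siRNA, horizontal axis) of 1 of the 47 measured genes, grouped by role, with its 95% confidence interval as a line; filled points passed an adjusted p of 0.05 in limma. The points of 46 genes lie left of 0, and only RRP12 lies right of it.

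The median deviation of the members from their scrambled siRNA mean was -0.58, -0.82 and -0.59 on the knockdown arrays, and 0.06, 0.01 and -0.05 on the control arrays. Knockdown array 2 stood apart over bright genes in general: the median deviation of all genes above level 8 was -0.03, -0.25 and -0.06 on the knockdown arrays. Of the 3 arrays it was the lowest for 30 of the 47 members. Without it, 13 members fell and their median change was -0.60, while 1.97% of all genes fell. Fewer members passed with any other array left out: 5, 2 and 5 without control array 1, 2 or 3, where 1.09%, 0.949% and 1.12% of all genes fell, and 11 and 8 without knockdown array 1 or 3, where 1.69% and 1.65% did. Among genes above level 8, 3.58%, 3.06% and 3.59% fell without control array 1, 2 or 3. Without knockdown array 1, 2 or 3, 5.23%, 6.24% and 5.28% of them fell. The 2 members that passed without control array 2 are 4.26% of the 47, close to the share above level 8. In each of these 6 fits 46 of the 47 changes were negative and the median lay between -0.73 and -0.60. POLR3K and NAT10 kept their call in all 6, and for the others the fits that lost it are named beside their values. Normalization by cyclic loess, which removes trends with brightness, left 14 falls and a median of -0.58, with 2.20% of all genes lower. Quantile normalization left 11 falls and a median of -0.54, with 2.02% of all genes lower. With the genes under a mean level of 6 removed first, 29 of 46 members fell, against 11.6% of the 13547 genes then tested. Of genes above level 8, 6.72% fell after cyclic loess, 6.16% after quantile normalization and 14.8% with this filter.

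**Figure D2:**
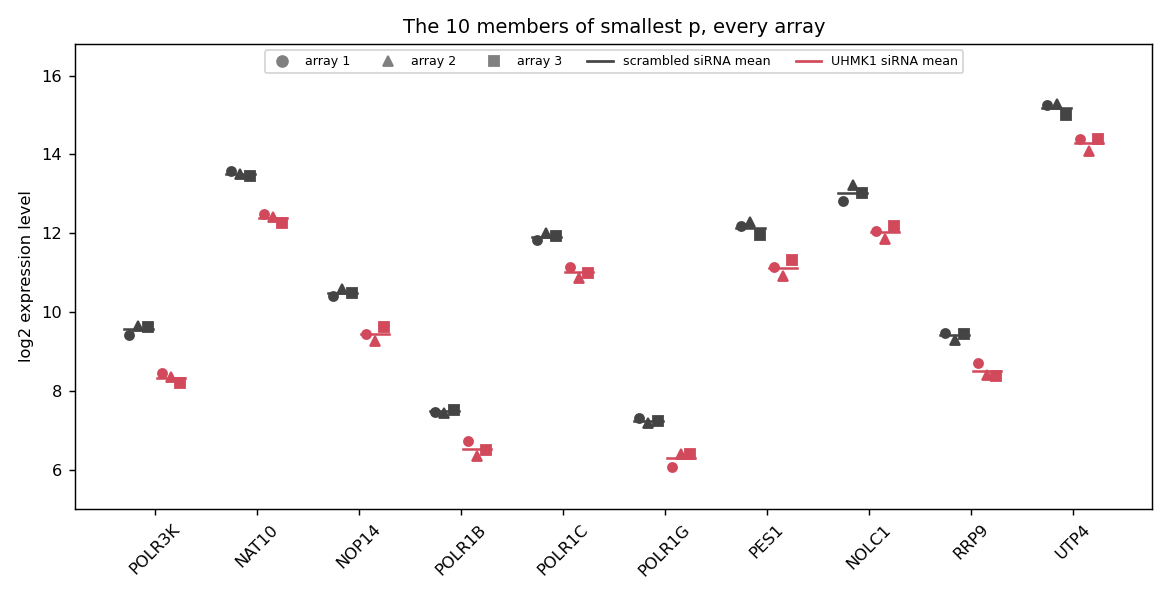
The log2 expression level (vertical axis) of the 10 members with the smallest p is shown on every array; circles, triangles and squares are arrays 1, 2 and 3, grey is scrambled siRNA, red is UHMK1 siRNA and bars are group means. For each of the 10 genes the red points lie below the grey ones.

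Promoter sequences of 44 of the 54 genes were found in a RefSeq table of assembly GRCh38.p14, which gives 250 bases before and 50 bases after each transcription start. CACGTG, the E-box hexamer that MYC and related factors bind and that reads the same on both strands, was present for 19 of these 44 genes, or 43.2% (Wilson 95% confidence interval 29.7 to 57.8, for counting error). It was present for 10.9% of 15843 protein-coding genes, for 13.4% of the 6114 with a level above 8 and for 17.0% of the 670 that fell. Among members it was found for 8 of 15 that fell (30.1 to 75.2) and for 9 of 23 that did not pass (22.2 to 59.2), intervals that overlap. Its place was close to the start: 17 of the 21 hexamers in member windows, or 81.0%, began within 50 bases before the start or after it, against 36.4% of 2056 in windows of other protein-coding genes. Those other genes were not limited to a level above 8. For comparison, 2 other motifs were searched after these shares were seen. CCGGAAG, a core bound by ETS factors and counted on both strands, was in 31.8% of member promoters and in 25.1% of those of protein-coding genes above level 8, and GGGCGG, the GC box, in 70.5% and 77.6%. These matches describe letters in a window and show no binding.

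The windows below run from 150 bases before to 10 bases after the start. The first 5 are those of members that fell and that hold CACGTG in this window, in capitals, and POLR3K, the member with the largest fall, holds none there.
NAT10, chr11:34105479-34105638, plus strand: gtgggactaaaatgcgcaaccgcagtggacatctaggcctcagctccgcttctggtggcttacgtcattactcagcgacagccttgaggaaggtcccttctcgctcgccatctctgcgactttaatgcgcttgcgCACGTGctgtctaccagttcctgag
UTP4, chr16:69132499-69132658, plus strand: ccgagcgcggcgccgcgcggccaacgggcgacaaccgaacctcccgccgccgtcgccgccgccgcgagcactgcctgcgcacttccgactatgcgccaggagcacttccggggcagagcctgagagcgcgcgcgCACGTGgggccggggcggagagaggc
RRP9, chr3:51941895-51942054, minus strand: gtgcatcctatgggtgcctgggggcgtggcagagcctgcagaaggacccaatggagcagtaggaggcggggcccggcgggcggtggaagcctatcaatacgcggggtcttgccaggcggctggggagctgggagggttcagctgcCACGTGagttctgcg
POLR1G, chr19:45406494-45406653, plus strand: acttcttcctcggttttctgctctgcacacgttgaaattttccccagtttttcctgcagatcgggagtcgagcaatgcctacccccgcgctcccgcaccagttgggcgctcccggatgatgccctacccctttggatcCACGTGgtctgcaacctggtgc
UTP20, chr12:101279955-101280114, plus strand: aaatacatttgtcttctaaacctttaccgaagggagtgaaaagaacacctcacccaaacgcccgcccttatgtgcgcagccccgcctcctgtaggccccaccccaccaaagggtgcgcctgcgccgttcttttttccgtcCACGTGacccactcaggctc
POLR3K, chr16:53599-53758, minus strand: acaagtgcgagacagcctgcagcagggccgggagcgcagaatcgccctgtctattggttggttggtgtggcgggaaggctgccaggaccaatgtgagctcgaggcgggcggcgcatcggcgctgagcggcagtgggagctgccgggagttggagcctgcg
The first base of the hexamer stood at -15 in NAT10, -16 in UTP4, -5 in RRP9, -12 in POLR1G and -10 in UTP20, where 1 is the first transcribed base and -1 the one before it, so all 5 began in the 25 bases before the start. In NOP14, PES1 and BYSL, which also fell, it began at 16, 14 and 29.

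**Figure D3:**
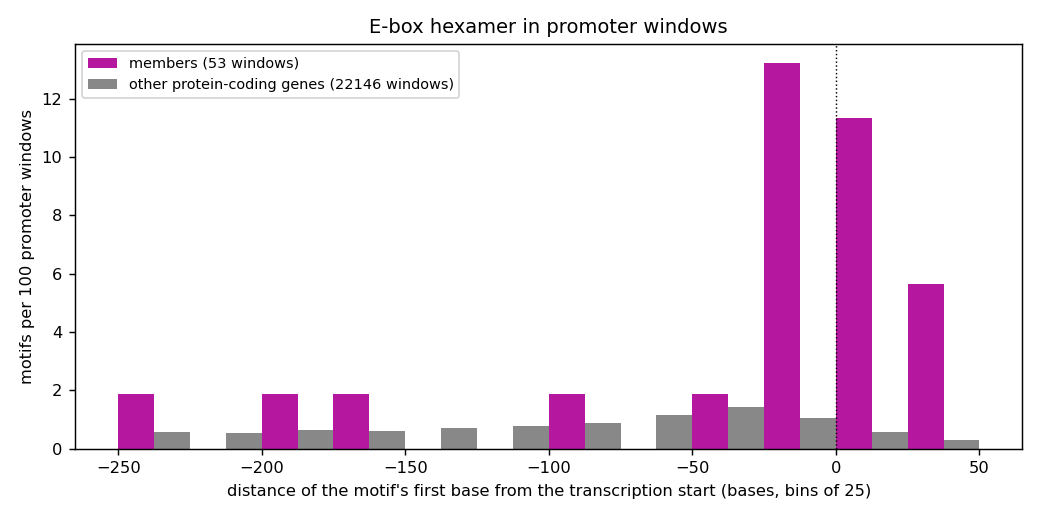
The number of E-box hexamers per 100 promoter windows (vertical axis) is plotted in bins of 25 bases by distance from the transcription start (0, dotted line), for 53 windows of the members and 22146 of other protein-coding genes; a gene can have several windows. In the bin just before the start, the highest for the members, there were 13.2 per 100 windows for the members and 1.05 for the others, which are genes of any level.

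Factors of the small subunit processome and of later small subunit maturation held 9 of the 18 falls, among 17 measured (52.9%), with a median of -0.75. Over all genes 2.67% fell, and over those above level 8, 8.39%. NAT10, which acetylates cytidines of the small subunit RNA and of transfer RNAs, stood at 13.59, 13.49 and 13.46 on the control arrays and at 12.48, 12.42 and 12.26 on the knockdown arrays. It fell by 1.13 (SE 0.14, adjusted p = 0.00403), with a narrow spread in both groups. NOP14, a processome component, read 10.40, 10.58 and 10.49 against 9.43, 9.26 and 9.63 and fell by 1.05 (SE 0.16, adjusted p = 0.00802). It missed the threshold only without control array 2 (adjusted p = 0.0510). RRP9, a protein of the U3 snoRNP that organises the processome, read 9.47, 9.30 and 9.45 and then 8.70, 8.41 and 8.37, a change of -0.91 (SE 0.16, adjusted p = 0.0150). All 3 knockdown arrays lay below the control arrays, array 1 by less than arrays 2 and 3. The call held in only 2 of the 6 fits with an array left out, those without knockdown array 1 or 2.

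UTP4 (cirhin), UTP15, HEATR1 and WDR75 belong to the subcomplex that joins the precursor first and that also affects Pol I transcription, and an inherited change in UTP4 is known to cause a childhood cirrhosis. UTP4 was at 15.25, 15.28 and 14.99 in control cells and at 14.39, 14.08 and 14.38 after UHMK1 siRNA. It fell by 0.89 (SE 0.16, adjusted p = 0.0204), and passed without control array 3 or knockdown array 2 but not without any other array (adjusted p at most 0.0997). HEATR1 read 13.71, 13.77 and 13.72 in control cells, the tightest of these groups, and 13.13, 12.85 and 13.07 after UHMK1 siRNA, a change of -0.72 (SE 0.15, adjusted p = 0.0327). UTP15 and WDR75 did not pass, at -0.87 (adjusted p = 0.0547) and -0.75 (adjusted p = 0.0823), although in both the groups did not overlap. WDR75 spread more on the knockdown arrays, at 13.67, 12.94 and 13.28, than on the control arrays, at 14.10, 14.06 and 13.98, and passed without knockdown array 1 (change -0.94, adjusted p = 0.0448). UTP6 and UTP18 belong to a second processome subcomplex and stood at -0.35 (adjusted p = 0.468) and -0.69 (adjusted p = 0.0984). UTP18 passed without knockdown array 2, which read 11.37 beside 10.87 and 10.79 (change -0.87, adjusted p = 0.0307).

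UTP23, an early processome factor in yeast, stood at 9.50, 9.48 and 9.23 and then at 8.80, 8.44 and 8.37, and fell by 0.87 (SE 0.17, adjusted p = 0.0285). UTP20, a large scaffold protein, read 11.98, 11.74 and 11.78 against 11.13, 11.20 and 10.92 and fell by 0.75 (SE 0.15, adjusted p = 0.0331). Neither gene's groups came near to overlapping, yet each passed in only 1 of the 6 fits with an array left out, UTP23 without knockdown array 1 and UTP20 without knockdown array 2. BYSL (bystin), which acts late on the small subunit, went from 11.78, 11.99 and 11.77 to 11.25, 10.81 and 11.10, a change of -0.79 (SE 0.17, adjusted p = 0.0365). For NOP9, an RNA-binding protein of small subunit precursors in yeast, the arrays gave 9.38, 9.46 and 9.63 in control cells and 8.81, 8.67 and 8.90 after UHMK1 siRNA, a change of -0.70 (SE 0.15, adjusted p = 0.0406). HEATR1, BYSL and NOP9 lost their calls with any array left out, at changes of -0.77 to -0.63, -0.89 to -0.67 and -0.75 to -0.63 and adjusted p-values of at most 0.133, 0.155 and 0.152.

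The remaining factors of the small subunit did not pass. NOB1, the endonuclease that makes the final cut in small subunit RNA, stood at -0.23 (adjusted p = 0.521, 95% confidence interval -0.56 to 0.10), and UTP3, of the early processome, at -0.27 (adjusted p = 0.567). UTP14A, which in yeast activates a helicase that frees the precursor of its snoRNA, had a change of -1.05 but an adjusted p of 0.277. Its knockdown arrays read 8.76, 6.89 and 8.62, so that array 2 carried most of the difference, and without it the change was -0.45. RRP12, a factor of subunit export in yeast, was the exception in direction, with a level of 5.41 ± 0.37 on the control arrays and 6.20 ± 0.24 on the knockdown arrays (SD, n = 3), which did not overlap (change 0.79, SE 0.22, limma's adjusted p = 0.0991). It is dim, and its 4 probe sets did not move together: 2 had negative and 2 positive changes, from -0.44 to 0.79.

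All 6 measured snoRNP proteins had negative changes. NOLC1, a chaperone of snoRNPs also known as Nopp140, and NOP58, a core protein of the box C/D particles that guide ribose methylation, fell. They are 2 of the 6 measured, or 33.3%, against 8.39% of all genes above level 8, and the median of the 6 was -0.42. NOLC1 stood at 12.82, 13.21 and 13.03 among the controls and at 12.06, 11.84 and 12.17 on the knockdown arrays and fell by 1.00 (SE 0.17, adjusted p = 0.0138). That call was lost without control array 2 (adjusted p = 0.0750) or 3 (adjusted p = 0.0614). NOP58 read 15.04, 14.95 and 15.00 and then 14.38, 13.92 and 14.36, with array 2 the lowest, a change of -0.78 (SE 0.17, adjusted p = 0.0412). It passed in none of the fits with an array left out (adjusted p at most 0.152). FBL (fibrillarin), the methyltransferase of the same particles, missed the threshold at -0.58 (SE 0.16, adjusted p = 0.0896), with groups that did not overlap: 15.51, 15.39 and 15.59 against 15.01, 14.71 and 15.02. All 13 probe sets of FBL had negative changes, from -0.63 to -0.31. The box H/ACA proteins, which guide pseudouridine formation, had small differences that did not pass. GAR1 stood at -0.25 (95% confidence interval -0.66 to 0.15), NHP2 at -0.20 (-0.52 to 0.13) and NOP10 at -0.16 (-0.48 to 0.15), with adjusted p-values of 0.577, 0.600 and 0.666. Each of these intervals overlaps the 95% confidence interval of FBL, which runs from -0.93 to -0.23. Whether box C/D and box H/ACA genes differ was not tested.

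Of the large subunit factors, 2 of 6 fell, or 33.3%, and the median was -0.54. The share that fell was 2.67% over all genes and 8.39% over those above level 8. PES1 (pescadillo), which with BOP1 and WDR12 forms a complex needed to mature large subunit RNA, stood at 12.18, 12.28 and 11.95 in control cells and 11.14, 10.91 and 11.32 after UHMK1 siRNA. It fell by 1.01 (SE 0.17, adjusted p = 0.0135), with a clear gap between the groups, and missed the threshold without control array 1 (adjusted p = 0.0712) or 2 (adjusted p = 0.0756). Its partner WDR12 stood at -0.58 (SE 0.18, adjusted p = 0.134), from 12.98, 12.73 and 12.63 to 12.35, 11.93 and 12.32. NOP16, another large subunit factor, read 10.84, 10.66 and 10.43 against 9.93, 9.74 and 9.89 and fell by 0.79 (SE 0.16, adjusted p = 0.0320). Its call was lost with any array left out (adjusted p at most 0.136). RRS1, needed for the large subunit to take up its smallest RNA in yeast, was at -0.50 (adjusted p = 0.141), NOP2, a methyltransferase of large subunit RNA, at -0.34 (adjusted p = 0.308), and RRP1B at -0.34 (adjusted p = 0.350). In all 6 genes the knockdown arrays lay below the control arrays, a pattern of 13.3% of all genes and 30.0% of those above level 8.

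Nucleolin and nucleophosmin, abundant phosphoproteins of the nucleolus with many roles, did not pass. NCL (nucleolin) stood at 17.11, 16.89 and 16.77 in control cells and at 16.60, 16.54 and 16.70 after UHMK1 siRNA. The groups just failed to overlap, and the change of -0.31 (SE 0.15) had an adjusted p of 0.390. NPM1 (nucleophosmin) stood at -0.11 (adjusted p = 0.789, 95% confidence interval -0.44 to 0.21), and its groups overlapped. A second NPM1 probe set, with a mean log2 level of 8.25, stood at -0.70, and the mean of both, at -0.41, did not pass. The probe sets used for NCL and NPM1 lie high on the deposited scale, whose highest value is 19.93.

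Genes of Pol I had 2 falls among 6 measured, or 33.3%, against 2.67% of all genes, and a median of -0.74. The 2 that fell have mean log2 levels below 8, and of the 4 above that level 0 passed in limma. POLR1B, the second largest subunit and part of the active site, stood at 7.47, 7.45 and 7.52 in the controls and fell to 6.72, 6.35 and 6.49 on the knockdown arrays. It fell by 0.96 (SE 0.15, adjusted p = 0.0109), or 1.95-fold, with control arrays that were almost equal. POLR1G read 7.32, 7.18 and 7.23 and then 6.07, 6.41 and 6.41, a change of -0.95 (SE 0.16, adjusted p = 0.0131). Here array 1 and not array 2 was the lowest. POLR1B and POLR1G passed when a knockdown array was left out but not when a control array was (adjusted p at most 0.0558 and 0.0714). POLR1E, which pairs with POLR1G in a dimer that aids initiation and elongation, stood at -0.73 (adjusted p = 0.120), on arrays that read 8.68, 8.26 and 9.06 after UHMK1 siRNA. POLR1A, the largest subunit, went from 12.04, 12.34 and 12.03 to 11.61, 11.08 and 11.46, a difference of -0.75 that narrowly missed the threshold (SE 0.18, adjusted p = 0.0643). The factors that bring Pol I to the ribosomal RNA genes did not pass: UBTF, which binds their promoter, stood at -0.34 (adjusted p = 0.414) and RRN3, which links the polymerase to it, at -0.24 (adjusted p = 0.651). RRN3 read 13.36, 13.45 and 12.99 against 13.36, 12.75 and 12.96, so its groups overlapped.

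Of the subunits that Pol I and Pol III share, the pair not found in Pol II fell. POLR1C and POLR1D form a dimer around which either polymerase is assembled, and inherited changes in both are known from Treacher Collins syndrome. POLR1C stood at 11.82, 12.00 and 11.92 and then at 11.14, 10.87 and 11.00, a change of -0.91 (SE 0.15, adjusted p = 0.0123). It lost its call without control array 2 (adjusted p = 0.0689) or 3 (adjusted p = 0.0571). POLR1D read 11.32, 11.16 and 11.47 against 10.00, 10.65 and 10.08, and fell by 1.07 (SE 0.20, adjusted p = 0.0220). Knockdown array 2 was its highest and not its lowest. Without that array the change was -1.28 (adjusted p = 0.00849), and without any other array the call was lost (adjusted p at most 0.0957). Of the subunits that Pol II has as well, 4 were measured and 0 passed in limma. POLR2L stood at -0.61 (adjusted p = 0.0679), POLR2H at -0.40 (adjusted p = 0.245), POLR2K at -0.29 (adjusted p = 0.470) and POLR2E at -0.25 (adjusted p = 0.674). Thus 2 of the 6 measured shared subunits fell, while 8.39% of all genes above level 8 did.

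Of 8 subunits of Pol III alone, 1 fell, and the median was -0.47. All 8 have a mean log2 level above 8, where 8.39% of all genes fell. The count of calls alone therefore does not set these subunits apart. All 8 changes were negative, against 62.5% of genes above level 8, whose median was -0.11. The 1 that fell was POLR3K, a small subunit at the active site that takes part in RNA cleavage and termination. POLR3K had the largest fall of all members. It stood at 9.41, 9.64 and 9.62 in control cells and at 8.45, 8.36 and 8.20 after UHMK1 siRNA, and fell by 1.22 (SE 0.15, adjusted p = 0.00358), which left 42.9% of its signal. With any array left out its change lay between -1.29 and -1.15 and its adjusted p was at most 0.0271. POLR3D and POLR3E, a dimer of Pol III, stood at -0.82 (adjusted p = 0.0572) and -0.56 (adjusted p = 0.130), and POLR3B, the second largest subunit, at -0.69 (adjusted p = 0.108). Arrays of POLR3D read 10.99, 11.49 and 11.23 against 10.60, 10.11 and 10.53, with no overlap. POLR3C, POLR3F and POLR3G form the subcomplex that opens the promoter, and their differences of -0.19, -0.21 and -0.38 did not pass (adjusted p = 0.651, 0.582 and 0.266). POLR3A, the largest subunit, varied within both groups, at 10.69, 11.04 and 10.37 and at 10.48, 10.11 and 10.89, with a difference of -0.21 (95% confidence interval -0.75 to 0.33). Whether the shared and the Pol III subunits differ in their change was not tested.

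Across the 47 members, Spearman's rho between mean level and change was 0.13, and across all 33616 genes it was -0.14; genes of 1 array set share their arrays and are not independent. The middle range of the changes, between the quartiles, ran from -0.88 to -0.32. The 18 members that fell had adjusted p-values of at most 0.0412, and the nearest member that did not pass, UTP15, had 0.0547.

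**Figure D4:**
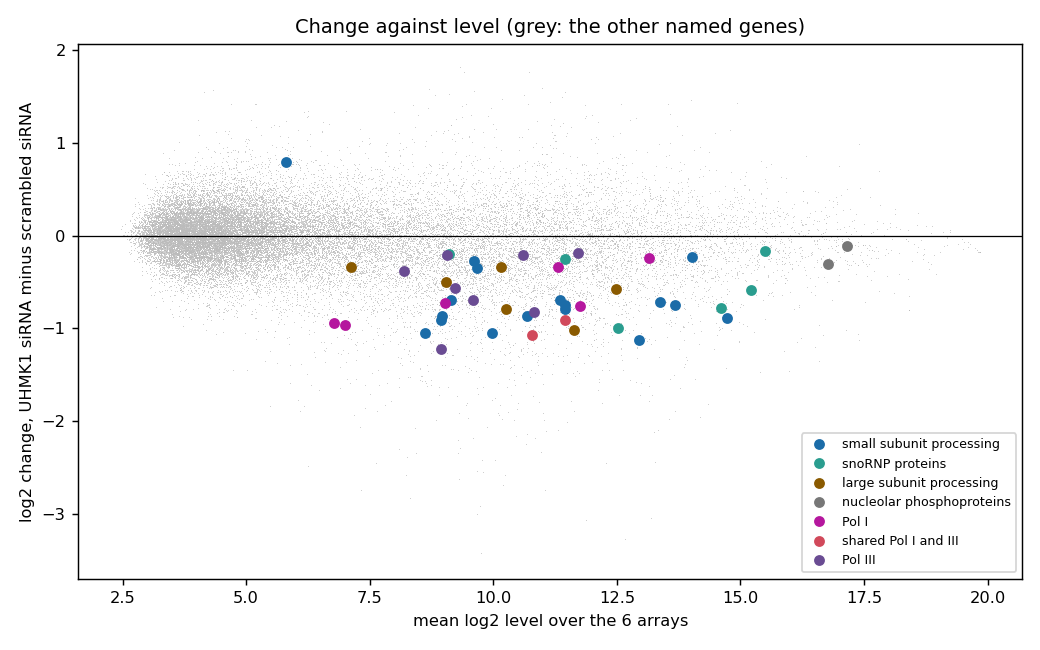
The log2 change (UHMK1 siRNA minus scrambled siRNA, vertical axis) is plotted against the mean log2 level over the 6 arrays (horizontal axis) for the 47 measured members, coloured by role, and for all other named genes in grey. The members with a level above 8 all lie below 0, from -1.22 to -0.11.

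Other genes of the same pathway were read from lists written by role, with earlier results of these data known. Of 34 measured other factors of the small subunit, 11 fell, or 32.4%, and 0 rose, all 34 had a negative change, and their median was -0.57. NOL6, a processome component, stood at 8.77, 8.62 and 8.81 and then at 6.99, 6.39 and 7.32, and fell by 1.83 (SE 0.23, adjusted p = 0.00364). PNO1, which partners NOB1 in late maturation, fell by 1.30 (adjusted p = 0.00238), and IMP4, a U3 snoRNP protein, fell by 1.22 (adjusted p = 0.00890). Among 31 other factors of the large subunit, 14 fell, or 45.2%, and 0 rose, 30 had a negative change, and their median was -0.71. PAK1IP1, needed for large subunit maturation, read 13.15, 13.16 and 13.28 against 12.00, 11.95 and 11.93 and fell by 1.24 (SE 0.14, adjusted p = 0.00221). GTPBP4, a nucleolar GTPase of the same branch, fell by 1.32 (adjusted p = 0.00283), and RRP1, a relative of RRP1B, fell by 1.22 (adjusted p = 0.00511). NOC4L, which fell by 1.02 (adjusted p = 0.0109), stands in the list of the large subunit, although its protein partners NOP14 in small subunit maturation. With it moved, 13 of 30 large subunit and 12 of 35 small subunit factors fell. Without knockdown array 2 the falls in the lists as written numbered 9 and 10, and without control array 2 there were 4 and 5.

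The rest of the Pol I and Pol III machinery gave lower counts, with 4 falls and 0 rises among 25 measured genes and a median of -0.25. CRCP, a Pol III subunit, fell by 1.04 (adjusted p = 0.0218), MYBBP1A, a nucleolar protein linked to Pol I, fell by 0.69 (adjusted p = 0.0401), and GTF3A, the factor that starts transcription of the smallest ribosomal RNA, fell by 0.70 (adjusted p = 0.0413). TBP, which serves all 3 polymerases, fell by 0.80 (adjusted p = 0.0477) and is named because it completes the count. With 1 array left out the count of falls in this list was 0 to 3, while 3.06% to 6.24% of genes above level 8 fell. After cyclic loess normalization it was 1 of the 25, while 6.72% of genes above level 8 fell. Of 7 subunits found in Pol II alone, 0 passed in limma, 2 were lower at an unadjusted p under 0.05, and the median was -0.18. POLR2I stood at -0.56 (adjusted p = 0.183), POLR2D at -0.39 (adjusted p = 0.260) and POLR2G at -0.20 (adjusted p = 0.653).

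Transcripts that Pol III makes did not shift together. Of 14 measured, 7 changes were negative and 7 positive, the median was -0.01, and 1 passed. VTRNA1-3, a vault RNA near the lower end of the scale, stood at 5.62 ± 0.22 on the control and 4.78 ± 0.23 on the knockdown arrays (SD, n = 3), fell by 0.84 on the log2 scale (limma's adjusted p = 0.0411) and did not pass in any of the 6 fits with an array left out. RNY3, a Y RNA, was at -0.30 (adjusted p = 0.459) and VTRNA1-2 at -0.31 (adjusted p = 0.658). RN7SL1 and RN7SL2 had equal values and a scrambled siRNA mean of 19.93, the top of the scale, so a difference there may be hidden. These RNAs are stable, and an array reads their amount and not their rate of synthesis.

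Genes of the ribosomal proteins, the other part of the ribosome, had 0 calls in limma among 51 measured of 79 listed. At an unadjusted p under 0.05, RPS14 was lower and 0 were higher. Their median change was -0.11, beside -0.11 over all genes above level 8 and -0.15 over the protein-coding genes among those. RPS14 stood at 13.25, 13.24 and 13.23 and then at 12.65, 11.96 and 12.86 (change -0.75, adjusted p = 0.130), RPS26 was at -0.30 (adjusted p = 0.400) and RPL5 at -0.36 (adjusted p = 0.436). Of these genes, 32 had a mean log2 level above 16, near the upper end of the scale, where a change may be compressed, which was not tested. RPS29, RPL4 and RPS3A, at mean levels of 3.7, 3.9 and 5.0, lie near the lower end, where a fall may not show. The difference between the ribosomal protein genes and the members was not tested.

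**Figure D5:**
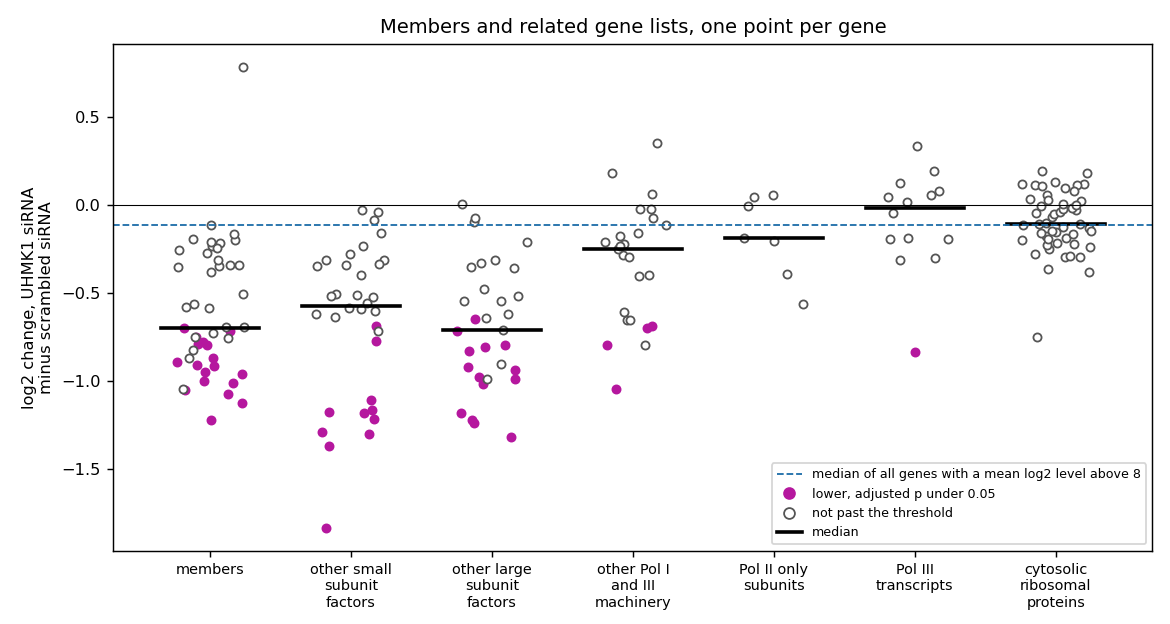
Each point is the log2 change (vertical axis) of 1 gene among the members or a related list; filled points were lower at an adjusted p under 0.05, black bars are medians and the dashed line is the median of all genes above level 8, -0.11. The medians of the members and of the other small and large subunit factors lie between -0.71 and -0.57, and those of the Pol III transcripts and ribosomal proteins at -0.01 and -0.11.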

How the data were processed

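RNA of 6 HepG2 samples was hybridised as biotin-labelled cRNA to Affymetrix arrays, per the labels' protocols. The deposited table holds log2 values for 135750 probe sets, which the authors made with Transcriptome Analysis Console 4.0 and RMA (background correction, quantile normalization and probe summary), per the submitters' processing notes. No detection calls were used, RMA can compress changes, and a quantile step hides a change in total RNA per cell. Precision is set by the small number of arrays.

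Of the probe sets, 36176 carry 1 gene symbol, updated by Entrez ID to RefSeq GRCh38.p14, and they give 33616 genes. The members, lists, roles and alternatives were chosen with earlier results of these data known. All genes were fitted in R 4.3.3 with limma 3.58.1 (lmFit, eBayes, no covariates) and called at a Benjamini-Hochberg adjusted p under 0.05. Named with array values were the members past the threshold, up to 20, and the member of smallest p of a role with none, and by change the 3 genes of smallest p of each other list. TBP, and array values of members that did not pass, were added after their values were seen. The alternatives were each array left out, the replicate number as a block, other normalizations, a filter at level 6, another variance prior, array weights and the mean of probe sets. Same-numbered arrays did not deviate together (correlations 0.05, 0.03 and -0.04), so the numbers were not taken as pairs.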

Additional observations from a re-analysis of the deposited data

How the results depend on the processing

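In all 13 alternatives 46 of the members' changes were negative and 0 members rose, and of 610 member values under them 504 stayed on their side of the threshold, 85 lost a call, 21 gained one and 0 turned in sign. The counts themselves moved; the cause was not tested except where stated. With 1 array left out, and so fewer samples, 319 to 662 genes were lower and 70 to 237 higher (897 and 244 with 6 arrays), 2 to 13 members fell (18 with 6), their median was -0.73 to -0.60, and 4 to 9 other small subunit factors, 5 to 11 other large subunit factors, 0 to 3 genes of the other Pol I and III machinery and 0 Pol III transcripts fell. With the replicate number as a block, in a design whose numbers do not pair the arrays, 576 genes were lower and 146 higher, 10 members, 9 other large subunit factors and 0 genes of the other machinery fell. Quantile normalization gave 680 lower and 429 higher genes (61.3% of calls lower, against 78.6% as deposited), 11 members with a median of -0.54, and 1 gene of the other machinery. Cyclic loess gave 739 and 406 (64.5% lower) and 1 gene of the other machinery. Dropping genes under a mean level of 6, which leaves 13547 to adjust for, gave 1570 lower and 517 higher genes, 29 of 46 members, 17 other small subunit factors, 7 genes of the other machinery, 1 ribosomal protein gene and 0 Pol III transcripts. The intensity trend with a robust prior gave 400 higher genes and 17 other small subunit factors, and array weights, which gave knockdown array 2 (UHMK1 siRNA) a weight of 0.396, gave 402 higher genes. Promoters with CACGTG or CACGCG made up 68.2% of the members' and 32.9% of those of protein-coding genes above level 8.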
